A study of Mus musculus with 23 samples.

Results

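Glra3, Gpr179, Hephl1 and Klk1b26 were 4 of the 55573 gene IDs in the count table of a study of glucocorticoid excess in mouse muscle. They were chosen by their read counts, which lay close to 0 in vehicle-treated mice and high in corticosterone-treated mice. These measured counts chose the genes, so every comparison of corticosterone with vehicle for them is given below as a description, without a test.

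The data were counts of read pairs per gene in the quadriceps of 23 C57Bl6 mice (C57BL/6J in the methods of the study), aged 8 to 10 weeks. Treated mice carried a pellet of 50 mg corticosterone with 50 mg cholesterol for 14 days, controls carried a pellet of 100 mg cholesterol, and all mice were fasted for 5 hours before death. There were 6 vehicle-treated males (VEH, M1, M3, M5, M7, M9 and M11), 6 corticosterone-treated males (CORT, M2, M4, M6, M8, M10 and M12), 6 vehicle-treated females (F1, F3, F5, F7, F9 and F11) and 5 corticosterone-treated females (F2, F4, F6, F8 and F10). Each library came from 1 animal, no transgene was named, and neither the labels nor the methods state whether the sexes were processed together. Sex and a batch can therefore not be told apart where the sexes are compared. Counts on genes ran from 20904150 to 21984477 per mouse, and the muscle fiber markers (6 genes) summed to 70429 to 192124 CPM (counts scaled to library size), so markers of the labelled tissue were abundant in every library. Libraries F2, F6 and F10 had 3496, 4618 and 4015 alignments set aside for low quality, against 1219 to 1856 in the other 20 libraries. These were a small share of their 24640979, 24681164 and 24692692 read pairs. Values without these 3 libraries are given beside results that rest on them.

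Corticosterone is the main glucocorticoid of rodents. It binds the glucocorticoid receptor, a nuclear receptor that enters the nucleus and binds palindromic DNA elements at its target genes, of which Fkbp5 (a chaperone of the receptor itself) is a well-known one. In muscle, a lasting excess of the hormone is known for fiber atrophy and insulin resistance. The 4 genes are best known from other tissues. Glra3 encodes the alpha 3 subunit of the glycine receptor, a chloride channel of inhibitory synapses in the spinal cord and retina. Gpr179 encodes an orphan receptor of the retinal ON bipolar cell, where it holds regulators of G protein signaling close to the Grm6 and Trpm1 cascade. Hephl1 encodes a multicopper ferroxidase related to hephaestin and ceruloplasmin, enzymes that oxidize iron as it leaves cells. Klk1b26 encodes a serine protease of the mouse tissue kallikreins, a cluster of closely related genes best known from the salivary glands.

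The 250 bases before the RefSeq transcription start are shown for the members whose window lay outside any annotated UTR, because the 4 genes moved in the same direction and the receptor's own element could be looked for there. The windows are in GRCm38.p6 and were read 5′ to 3′ on the strand of the gene, at chr8:55940168-55940417 (plus strand) for Glra3, chr11:97352357-97352606 (minus strand) for Gpr179 and chr9:15112109-15112358 (minus strand) for Hephl1. Capitals mark a single arm of the glucocorticoid response element, the hexamer AGAACA or its reverse complement TGTTCT.
Glra3: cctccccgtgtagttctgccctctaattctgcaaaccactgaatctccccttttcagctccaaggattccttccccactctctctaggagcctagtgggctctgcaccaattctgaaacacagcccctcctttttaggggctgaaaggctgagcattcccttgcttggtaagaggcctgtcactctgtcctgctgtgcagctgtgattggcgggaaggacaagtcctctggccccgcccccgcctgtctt
Gpr179: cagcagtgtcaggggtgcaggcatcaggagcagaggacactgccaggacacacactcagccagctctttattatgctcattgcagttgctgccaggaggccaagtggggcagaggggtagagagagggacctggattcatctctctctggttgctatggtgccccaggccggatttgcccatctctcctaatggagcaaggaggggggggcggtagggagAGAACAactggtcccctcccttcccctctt
Hephl1: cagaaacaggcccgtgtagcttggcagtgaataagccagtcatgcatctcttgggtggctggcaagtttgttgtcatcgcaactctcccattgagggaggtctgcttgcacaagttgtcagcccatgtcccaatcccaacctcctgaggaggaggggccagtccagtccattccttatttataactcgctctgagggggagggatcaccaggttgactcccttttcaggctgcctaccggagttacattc

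The Gpr179 window held 1 such hexamer, 30 to 25 bases before the start, and the windows of Glra3, Hephl1 and Klk1b26 held none. The hexamer on either strand occurred in 16.1% of all 32851 RefSeq windows of this length. The full palindrome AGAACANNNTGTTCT, which joins the hexamer and its reverse complement, occurred in 3 of the 32851 windows (0.00913%) and in none of the 4. The TATA box letters TATAAA on the gene's strand occurred in 7.59% of all windows and in none of the 4. These letters describe the windows only and say nothing of binding. The Klk1b26 window (7, 44012428 to 44012677) lay inside its annotated 5′ UTR and is not shown.

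Glra3 (ENSMUSG00000038257) spans 55940460 to 56130070 on the plus strand of chromosome 8 in GRCm38. It was all but absent from vehicle-treated muscle. M9 had 1 count, and the other 5 vehicle-treated males and all 6 vehicle-treated females had 0, which at the floor of 3 counts allows up to 0.165 CPM in a mouse. With corticosterone, M2, M4, M6, M8, M10 and M12 had 381, 386, 299, 103, 181 and 156 counts. F2, F4, F6, F8 and F10 had 68, 14, 80, 26 and 32 counts. Every treated mouse lay above every vehicle-treated mouse, the treated males being highest and F4 the lowest treated mouse. The male groups summed to 1506 against 1 count, a ratio of 1556 after normalization whose 95% counting interval (exact conditional binomial) ran from 279 to 61490. The females summed to 220 counts against 0, a ratio of 85.2 when the vehicle sum is set to a floor of 3 counts. This ratio carries no interval and is not a lower limit. Intervals here and below cover counting error only and leave out the spread between mice.

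Gpr179 (ENSMUSG00000070337) lies at 97332109 to 97352077 on the minus strand of chromosome 11. In treated females it had the lowest counts of the 4 genes, while in treated males Hephl1 had fewer (167 against 222). M1, M7 and M9 had 1 count each, and the other vehicle-treated mice of both sexes had 0. In treated males M2, M4, M6, M8, M10 and M12, the counts were 38, 53, 31, 57, 29 and 14. In treated females F2, F4, F6, F8 and F10, they were 4, 3, 8, 5 and 0. The male groups did not overlap, whereas F10 stood at the level of the vehicle-treated females. The sum over males was 222 counts against 3, or 76.4-fold (25.8 to 374). That over females was 20 counts against 0, a ratio of 7.74 against the same floor of 3 counts, again without an interval.

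Hephl1 (ENSMUSG00000031936) lies at 15051841 to 15112108 on the minus strand of chromosome 9. Vehicle-treated males M1, M3, M5, M7, M9 and M11 had 1, 7, 1, 0, 2 and 6 counts, and vehicle-treated females F1 to F11 had 3, 3, 4, 4, 0 and 4. Treated males M2 to M12 had 49, 14, 27, 20, 26 and 31 counts. Treated females F2, F4, F6, F8 and F10 had 276, 8, 265, 14 and 364 counts. Groups of either sex did not overlap with vehicle, but the treated females fell apart into 3 mice with 265 to 364 counts and 2 with about as few as the lowest treated males. The ratio of summed counts was 10.1 in males (6.15 to 17.8) and 59.8 in females (37.6 to 101). In F2, F6 and F10, the libraries with the most low-quality alignments, the mean was 12.5 CPM, 91.8-fold the vehicle level, and in F4 and F8 it was 0.536 CPM, 3.90-fold (2.0 to 7.72).

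Klk1b26 (ENSMUSG00000053719) lies at 44012168 to 44016968 on the plus strand of chromosome 7, amid the kallikrein cluster. It was the most abundant of the 4 genes with treatment. Vehicle-treated males M1 to M11 had 9, 9, 11, 2, 0 and 1 counts, and vehicle-treated females F1 to F11 had 1, 8, 7, 0, 3 and 5. Treated males M2 to M12 had 416, 533, 371, 382, 356 and 312 counts. Treated females F2 to F10 had 289, 49, 271, 225 and 261 counts. No treated mouse overlapped with vehicle, treated males lay above treated females, and F4 stood apart below the other treated females. Ratios were 76.5 in males (54.0 to 112) and 53.0 in females (35.4 to 83.1).

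**Figure D1:**
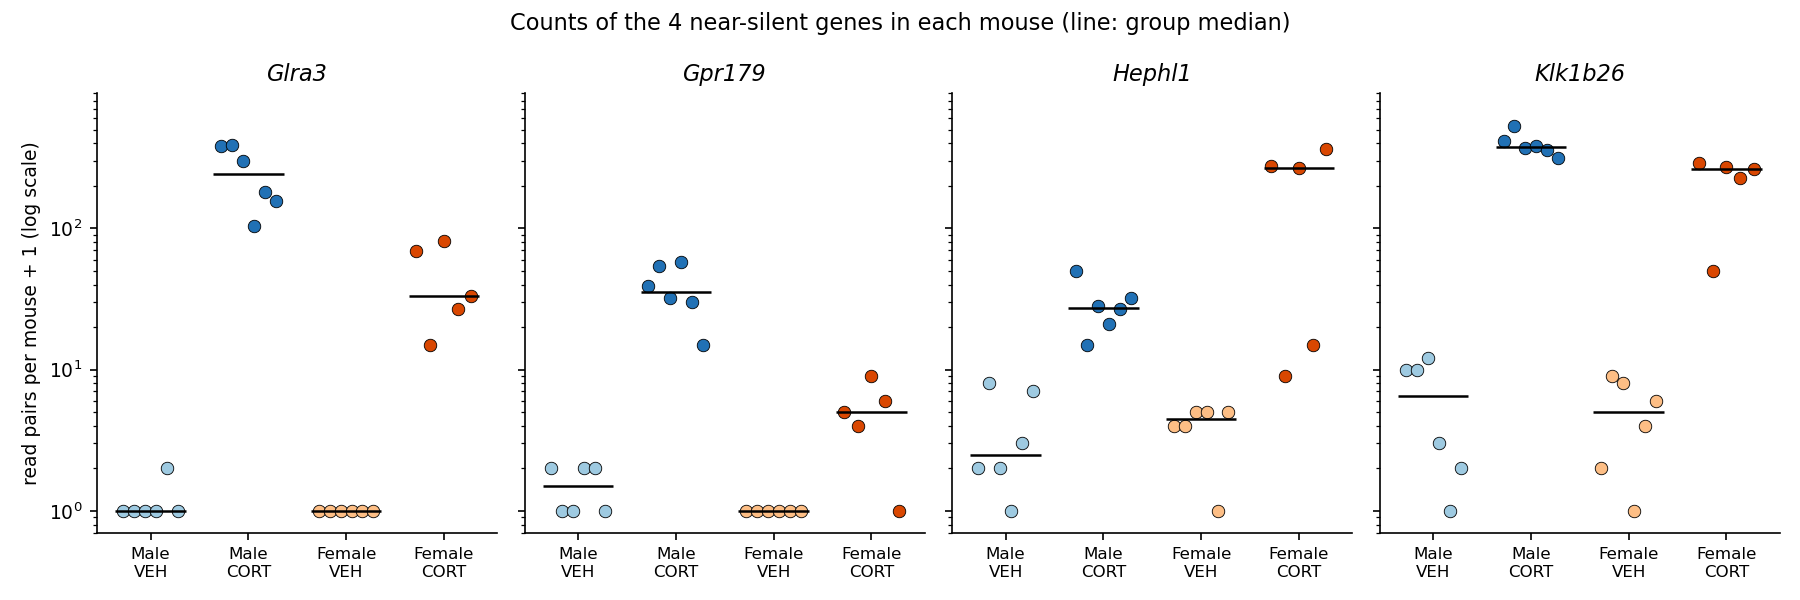
Read pairs per mouse plus 1 on a log axis for Glra3, Gpr179, Hephl1 and Klk1b26 in vehicle-treated and corticosterone-treated males and females; each point is 1 mouse and each line a group median. Treated mice lie above all vehicle-treated mice of their sex except for Gpr179, where F10 is at 0, and the treated females split for Hephl1 (8 and 14 against 265 to 364 counts).

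All 4 genes had every treated male above every vehicle-treated male, as did 7.04% of the 13049 genes tested. In females 3 of the 4 were separated in this way, against 2.86% of the genes tested. All 4 passed the filter on low counts (over 20 normalized counts in 4 mice of a group), and did so only through treated groups, since no vehicle-treated mouse exceeded 11 counts. Glra3 and Klk1b26 passed through treated mice of both sexes. Gpr179 passed through treated males alone, with 5 males and 0 females over the limit, and Hephl1 likewise, with 4 males and 3 females over it. As the separation chose the genes, it supports nothing further. The fibroblast markers (6 genes) summed to less in treated males, at 328 to 493 CPM against 903 to 1370 CPM with vehicle. In females the ranges overlapped, at 522 to 1074 CPM with treatment against 783 to 1748 CPM with vehicle. The part of these markers in the values of the 4 genes was not tested. Muscle is bulk tissue here, so fewer cells that express a gene and less RNA per cell cannot be told apart.

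Per length of exons, the order in treated males was Klk1b26, Glra3, Hephl1 and Gpr179. Klk1b26 had 14.2 ± 3.91 RPKM (SD, n = 6) and Glra3 1.39 ± 0.773. Hephl1 (0.263 ± 0.127 RPKM) and Gpr179 (0.193 ± 0.0863) differed by less than their SD. In treated females (n = 5), Klk1b26 had 6.90 ± 3.0 RPKM, Hephl1 1.47 ± 1.28, Glra3 0.207 ± 0.127 and Gpr179 0.0187 ± 0.0127. Hephl1 thus stood above Glra3 in females, by less than its SD. In F4 both had 0.0731 RPKM, and in F8 Glra3 had 0.139 and Hephl1 0.131, so that order came from F2, F6 and F10. Of 6 known targets of the receptor, all were called higher in males and 1, Fkbp5, in females, where 13.2% and 7.4% of all tested genes were called higher. Fkbp5, by comparison, had 38.1 ± 4.44 RPKM in treated males and 23.3 ± 5.64 in treated females.

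The level reached with corticosterone was then compared between the sexes. Earlier results of these data had named Gpr179 and Klk1b26 for rises in males, Hephl1 for females and Glra3 for both. The differences of Gpr179, Klk1b26 and Hephl1 between the sexes are therefore given as a description, without a test, and Gpr179 moreover passed the filter only through the group where it was high. A test of the level between the sexes is given for Glra3 alone. Its p is no independent support, since all 4 genes were chosen with results in view. Between treated males and treated females, 23.3% of the 13049 tested genes passed an adjusted p of 0.01 in either direction (edgeR quasi-likelihood, Benjamini-Hochberg), and 8.87% had groups without overlap.

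Glra3 and Gpr179, the synaptic and the retinal receptor, were higher in treated males. Glra3 averaged 12.8 ± 7.12 CPM in males (SD, n = 6) and 1.91 ± 1.17 in females (n = 5), and the lowest male (103 counts) exceeded the highest female (80 counts). Its log2 fold change of males over females was 2.74 (SE 0.45, adjusted p = 0.000381, edgeR). An exact permutation test of log2 CPM over 462 regroupings gave p = 0.00433 for Glra3. Gpr179 averaged 1.84 ± 0.823 CPM in males and 0.179 ± 0.121 in females, a log2 fold change of 3.33 (SE 0.51), or 3.22 without F2, F6 and F10. The sexes did not overlap for either gene.

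Klk1b26, the kallikrein, averaged 19.7 ± 5.42 CPM in treated males and 9.56 ± 4.16 in treated females. Its log2 fold change of males over females was 1.04 (SE 0.41), and its groups did not overlap. Hephl1, the ferroxidase, was higher in treated females on average, with 7.74 ± 6.71 CPM against 1.38 ± 0.667 in males. The log2 fold change of males over females was -2.49 (SE 0.64), but the groups overlapped. Without F2, F6 and F10 it turned to 1.37, higher in males.

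**Figure D2:**
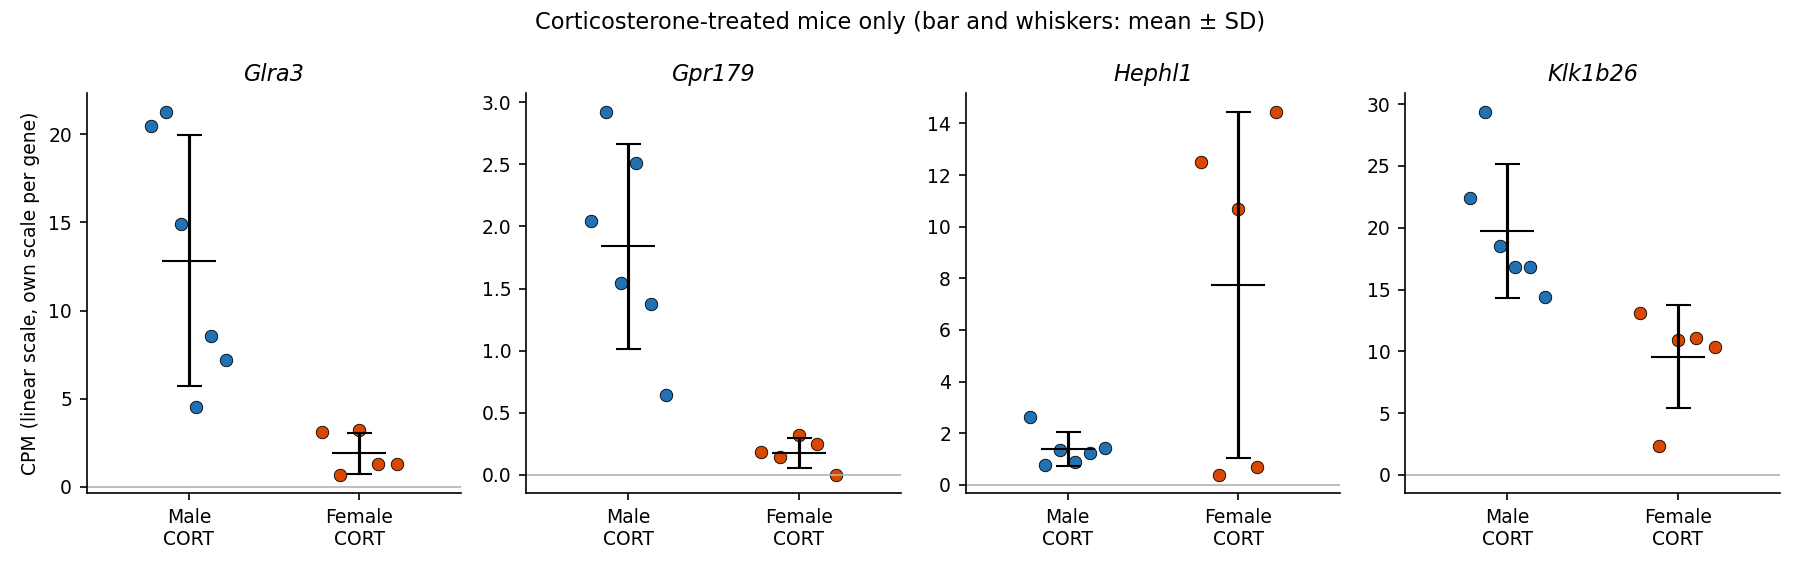
CPM of the 4 genes in corticosterone-treated males and females on linear axes, each with its own scale; points are mice, and the bar and whiskers are the mean and SD. Males lie above females without overlap for Glra3, Gpr179 and Klk1b26, and the 2 low females of Hephl1 lie below every male.

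A difference between the sexes in the response itself is asked by the interaction of sex and treatment. It is built from the comparisons with vehicle that chose the 4 genes. Its p-values for them are therefore given as a description and support nothing. It was past the threshold for 0.69% of the tested genes and for none of the 4 by edgeR, and the adjusted p-values were 0.811 for Glra3, 0.683 for Gpr179, 0.185 for Hephl1 and 0.674 for Klk1b26. The unadjusted p was also above 0.05 for each, the lowest being 0.0660 for Hephl1, and DESeq2 and limma-voom called none of them either. The size of the interaction of Gpr179 differed between tools, at 0.99 on the log2 scale (SE 1.53) by edgeR, 1.89 (SE 1.38) by DESeq2 and 2.76 (SE 0.95, adjusted p = 0.0451) by limma-voom. For Hephl1 the interaction was -2.47 on the log2 scale (SE 1.27) and for Klk1b26 0.56 (SE 0.85). Values for Glra3 and Gpr179 rest on vehicle-treated females at 0 and depend on the prior count of the fit. Whether the responses of the sexes differed cannot be decided from these values.

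Spread between treated mice of 1 sex was no part of the rule. Over the 11 treated mice, log2 CPM was centred on the mean of each sex, and 10 pairs among the 4 genes and Fkbp5 were compared with exact permutations within sex (86400 in all). Glra3 and Klk1b26 varied together, with r = 0.71 (permutation p = 0.00175, adjusted p = 0.0175 over the 10 pairs) and Spearman's rho 0.82 (adjusted permutation p = 0.0190). Within males r was 0.80 and within females 0.78, and F2 and M4 stood high while F4 stood low for both genes. Without M4 and F6, the 2 mice farthest from the median of Glra3, r was 0.66 (permutation p = 0.0462, adjusted p = 0.154 over the 10 pairs). Leaving out M4, F2, F4 or F6 alone also took the adjusted permutation p past 0.05, to 0.203 at most.

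Gpr179 and Fkbp5 had r = 0.84 (permutation p = 0.00677, adjusted p = 0.0339), but rho was 0.55 (adjusted permutation p = 0.221) and r was 0.34 (permutation p = 0.398) without M12 and F10, so the relation rests on those mice. Glra3 and Fkbp5 had r = 0.64 and rho 0.72, with adjusted permutation p-values of 0.161 and 0.0993. The other 7 pairs had r from -0.32 to 0.61, with adjusted permutation p-values from 0.236 to 0.951. Among treated males, the summed muscle fiber markers were also highest in M4, M2 and M6 (192124, 189652 and 151157 CPM) and lowest in M8 (109998 CPM), as were their Glra3 counts, whereas M12 had more than M10 (121253 against 115364 CPM) and fewer Glra3 counts (156 against 181). In treated females they were highest in F4 (153099 CPM), which had the fewest Glra3 counts. The part of these markers in the relation was not tested.

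**Figure D3:**
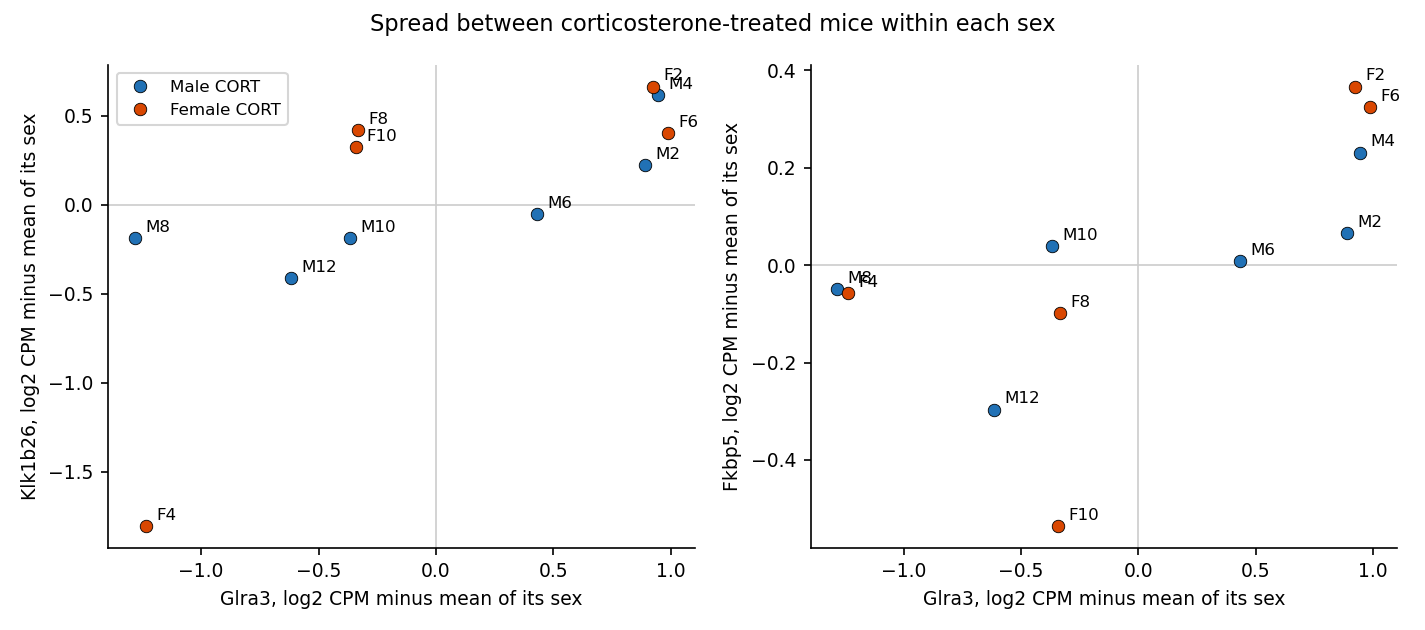
Log2 CPM minus the mean of the mouse's sex for Glra3 (x axes) against Klk1b26 (left) and Fkbp5 (right), 1 point for each of the 11 corticosterone-treated mice. Klk1b26 rises with Glra3 in both sexes (r = 0.71), with F4 the lowest for Klk1b26, and Fkbp5 follows less closely (r = 0.64).

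Genes with a pattern most like each member were looked for by Pearson r of log2 CPM over all 23 mice among the tested genes. The contrast of treatment that chose the members enters each r, so these values are a description. Closest to Glra3 were Pik3r1 (r = 0.98), which encodes the regulatory subunit of PI3-kinase, Fibin (0.96) and the adaptor Traf3ip2 (0.96). Pik3r1 averaged 237 ± 59.3 CPM in treated and 28.4 ± 3.54 in vehicle-treated males (SD), and 150 ± 64.7 and 32.4 ± 4.30 in females. Closest to Gpr179 were Phc1 (0.96), a Polycomb protein, Med25 (0.96), a Mediator subunit, and Ybx3 (0.96), a cold-shock domain protein. Closest to Hephl1 were Osmr (0.91), the oncostatin M receptor, Hrct1 (0.91) and Dennd4a (0.91). Closest to Klk1b26 were Hectd2os (0.94), Fkbp5 (0.94) and again Pik3r1 (0.93). Over the 11 treated mice centred by sex, Pik3r1 kept r of 0.85 with Glra3 and 0.90 with Klk1b26. Between Fkbp5 and Klk1b26, r was 0.30 over these mice, with 0.88 within males and 0.18 within females.

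The relatives of the 4 genes were counted apart, in 4 lists chosen for their roles. Of 73 relatives in the table, 29 were tested. In males 3 were higher and 7 lower with corticosterone, where 13.2% and 13.1% of all tested genes were called higher and lower. In females 6 were higher and 4 lower, where the shares of all tested genes were 7.4% and 6%. The median log2 fold change over all tested genes was -0.02 in males and 0.04 in females.

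The other subunits of the glycine receptor had few counts. Glra1 and Glra2, alpha subunits, had 0 counts in all 23 mice, and Glra4 had 1 count in 1 vehicle-treated female. Glrb, the beta subunit that links the channel to its scaffold, had 0 to 3 counts in treated males and 1 to 7 in treated females, with 6 in F4 beside 14 of Glra3. With vehicle, Glrb summed to 24 counts in males and 39 in females, above Glra3 with 1 and 0. The scaffold gephyrin (Gphn) had log2 fold changes of 0.14 in males and -0.22 in females, and the glycine transporter Slc6a9 had -0.07 and -0.71. Neither passed the threshold in either sex (lowest adjusted p = 0.0144, edgeR, for Slc6a9 in females). The neuron markers summed to at most 0.538 CPM in treated males and 1.25 in treated females, with Elavl4 at 0 in both male groups. In vehicle-treated females they reached 3.36 CPM in F5 and 0.991 in the next mouse, and the female medians were 0.887 CPM with treatment and 0.821 with vehicle.

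Of 14 partners and relatives of Gpr179, 6 were tested, with a median log2 fold change of -0.82 in males and -0.29 in females. In males 1 was called higher and 3 lower, and in females 1 lower. The regulator Rgs11, which it anchors in the retina, rose in males from 0.332 to 1.22 CPM (log2 fold change 1.86, SE 0.35, adjusted p = 0.000245, edgeR). Its counts were 17, 23, 25, 28, 46 and 10 in treated males and 4 to 11 in vehicle-treated males, so M12 overlapped. In females Rgs11 had a log2 fold change of 0.61 (adjusted p = 0.216, edgeR), and the interaction with sex missed the threshold (adjusted p = 0.0936). The channel Trpm1, the Rgs partner Gnb5 and the related regulator Rgs6 fell in males by 2.22, 1.21 and 1.65 on the log2 scale (adjusted p = 0.000339, 9.75e-05 and 0.000478, edgeR). In females Rgs6 fell by 1.37 (adjusted p = 0.00381, edgeR), or by 1.90 (adjusted p = 0.0417) without F2, F6 and F10, and the other 2 did not pass. Rgs11 reached the filter on low counts only through treated males, Trpm1 only through vehicle-treated males and Rgs6 only through vehicle-treated mice. Each thus passed the filter where it was high, which limits what these calls show. The retina markers, among them the rod genes Pde6b, at 0 in all mice, and Pde6a, summed to 0 to 0.403 CPM, with treated and vehicle-treated mice in the same range.

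Of the 19 iron and copper genes related to Hephl1 by role, 18 were tested, with 2 called higher and 4 lower in males and 6 higher and 3 lower in females. Their median log2 fold change was 0.05 in males and 0.64 in females. The metallothioneins Mt1 and Mt2, which bind copper and zinc, rose in both sexes. The log2 fold change of Mt1 was 2.7 (SE 0.35) in males and 2.82 (SE 0.36) in females, and that of Mt2 was 4.10 (SE 0.38) and 3.86 (SE 0.38). Tfrc, the transferrin receptor that takes up iron, fell by 1.48 in males and 1.32 in females on the log2 scale, and the iron transporter Slc11a2 and the reductase Steap3 also fell in both sexes. Hfe, a regulator of iron uptake, fell in males by 1.03.

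The 2 other multicopper ferroxidases followed the same females as Hephl1. Heph, hephaestin, counted from F2 to F10, had 417, 128, 839, 20 and 379 read pairs, against 17 to 91 in vehicle-treated females (log2 fold change 2.84, SE 0.58, adjusted p = 0.00136, edgeR; interaction with sex -2.7, adjusted p = 0.0343). Cp, ceruloplasmin, had 2168, 673, 3864, 354 and 3384 counts, against 231 to 684 (log2 fold change 2.27, SE 0.44, adjusted p = 0.000825, edgeR; interaction -1.76, adjusted p = 0.0532). For both, F2, F6 and F10 lay above all vehicle-treated females, while F8 lay within their range. In males neither passed, with log2 fold changes of 0.14 and 0.52. Ftl1, a ferritin chain, and Steap4, a metalloreductase, rose in females by log2 fold changes of 0.83 and 0.82, and their interactions with sex missed the threshold as well (adjusted p = 0.0530 and 0.0355, edgeR). With F4 and F8 as the remaining treated females, the log2 fold change was 0.76 for Heph (SE 0.62), 0.44 for Cp (SE 0.41), 0.17 for Ftl1 and 0.30 for Steap4, none of them past the threshold (lowest adjusted p = 0.437, edgeR). In that fit Mt1 (2.40) and Mt2 (3.67) remained as the 2 relatives called in females, in place of 10 over the 4 lists, and Tfrc, Slc11a2 and Steap3 kept their direction with adjusted p-values of 0.0971, 0.0602 and 0.0365 (edgeR).

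The same 3 females carried the most adipocyte transcripts. The adipocyte markers (6 of 6 detected) summed to 3188, 6248 and 2971 CPM in F2, F6 and F10, and to 1067 and 258 CPM in F4 and F8. Among vehicle-treated females, F3 and F5 had sums of 1982 and 2443 CPM with 3 and 4 Hephl1 counts. Cfd, the adipsin gene, made up 1104 and 1195 CPM of these sums, against 360, 765 and 243 CPM in F2, F6 and F10. The other 5 markers were each higher in F2, F6 and F10 than in F3 and F5. Among them, Lep had 4.24 and 3.53 CPM in F3 and F5 and 263, 659 and 241 CPM in F2, F6 and F10. Over the 5 markers without Cfd, F3 and F5 had 877 and 1248 CPM, against 2728 in F10, 2828 in F2 and 5482 in F6. Treated males had sums of 275 to 858 CPM with 14 to 49 Hephl1 counts. The part of adipocyte transcripts in the treated females was not tested. The keratinocyte markers, a check for skin and hair, summed to 0.817 to 1.82 CPM except for 12.6 in F6, with Krt1 at 0 in all mice.

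**Figure D4:**
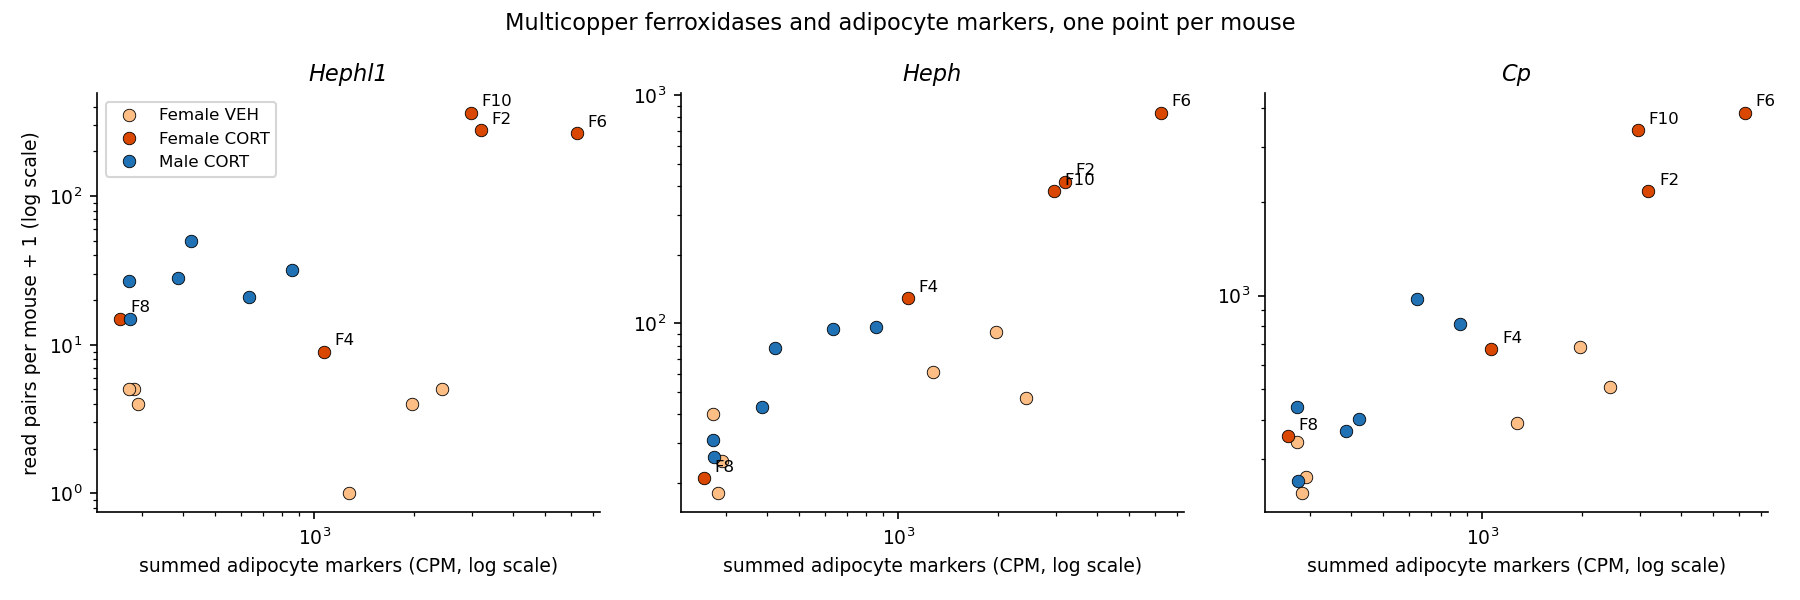
Read pairs per mouse plus 1 for Hephl1, Heph and Cp against the summed CPM of the adipocyte markers, both on log axes, in vehicle-treated females, treated females (named) and treated males. F2, F6 and F10 combine the highest sums (2971 to 6248 CPM) with the highest Hephl1 counts (265 to 364). The vehicle-treated females with the highest sums, 1982 and 2443 CPM, of which Cfd makes up 1104 and 1195 CPM, have 3 and 4 Hephl1 counts.

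Around Klk1b26, 28 other kallikreins were in the table, of which 2 (Klk8 and Klk10) were tested and neither passed the threshold in either sex. Klk1b26 stood almost alone among the 15 genes of the Klk1 and Klk1b cluster, 1 of them a pseudogene. It held 2370 of their 2402 counts in treated males, 98.7% (95% exact binomial interval 98.1% to 99.1%), and 1095 of 1116 in treated females, 98.1% (97.1% to 98.8%). In vehicle-treated females it held 24 of 25 counts, 96% (79.6% to 99.9%). In vehicle-treated males it held 32 of 132 counts, because M1 alone had 92 counts of the other genes, 31 of them of Klk1b8, and the other 5 vehicle-treated males had 0 to 3. M1 had 9 Klk1b26 counts, no more than M3 (9) and M5 (11). Paralogs in this cluster are alike in sequence, so read pairs that match several of them may be dropped or misplaced. Of the 1287 windows of 100 bases in the Klk1b26 transcript, 6 also occurred in a transcript of another gene, Klk1b8, which had at most 2 counts in a treated mouse. For Glra3, Gpr179 and Hephl1, 0 windows were shared.

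The salivary gland markers Smr2, Smr3a and Dcpp1 were at 0 in all 23 mice. The whole list, with 5 of 8 genes detected and nearly all of its sum from Amy1 and Egf, had sums of 116 to 179 CPM in treated males against 58.2 to 103 in vehicle-treated males. In females it was 94.6 to 170 with treatment against 77.0 to 149. Hepatocyte markers reached 2366 CPM in M8 and 2338 in F10, whose Klk1b26 counts of 382 and 261 lay within the range of their groups. Its cluster neighbors Klk1b1, Klk1b9, Klk1b11, Klk1b22 and Klk1b27 had at most 1 count in a treated mouse, and Klk1b21 had up to 4, with 15 counts over treated males and 3 over treated females.

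The nearest protein-coding genes, 3 on either side of each member, were 24 in number, and 12 of them were tested. With corticosterone, 1 was called higher and 0 lower in males, where the shares of all tested genes were 13.2% and 13.1%. In females 1 was higher and 1 lower, where the shares were 7.4% and 6%. Cep44, 401452 bases from Glra3, had a log2 fold change of 0.39 (SE 0.09, adjusted p = 0.00115, edgeR) in males. Hpgd, which encodes a prostaglandin dehydrogenase 164515 bases from Glra3, had 1.75 (SE 0.37, adjusted p = 0.00173, edgeR) in females, and 0.59 (adjusted p = 0.403, edgeR) without F2, F6 and F10. Socs7, 10474 bases from Gpr179, fell by 0.55 (adjusted p = 0.00306, edgeR) in females, with -0.33 (adjusted p = 0.283, edgeR) without those 3. No neighbour was near silent with vehicle and high with treatment. Both genes that overlap Glra3, the pseudogenes Gm7351 and Gm45366 on the opposite strand in its introns, had 0 counts in all mice.

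Among all 55573 gene IDs, 40832 averaged under 0.5 CPM in both vehicle groups. Of these, 20 had every treated mouse above every vehicle-treated mouse of its sex in both sexes and a mean of at least 1 CPM in a treated group. Glra3, Hephl1 and Klk1b26 were 3 of the 20, and Gpr179 was not, because F10 had 0 counts. Of the 15 with the highest treated mean, Klk1b26 ranked first with 15.1 CPM over the 11 treated mice. Cxcl13, a chemokine that attracts B cells, followed with 11.6 CPM, then Glra3 with 7.87 and Hephl1 with 4.27.

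Cxcl13 averaged 11.8 CPM in treated males and 11.5 in treated females, against 0.229 and 0.330 with vehicle. Chil3, a chitinase-like protein of macrophages, averaged 2.28 and 2.86 CPM with treatment. The remaining protein-coding genes among the 15 were Alox12b, a lipoxygenase known from skin, Gm10309, the kinase Nek10 and Rnf39, with treated means of 1.36 to 2.72 CPM. The other 6 were 5 long noncoding RNAs (Gm38832, E230001N04Rik, Gm11734, Gm30173 and A830008E24Rik) and 1 antisense RNA (Gm45774), with treated means of 1.38 to 3.83 CPM. Glra3 had the lowest vehicle level of the 20.

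**Figure D5:**
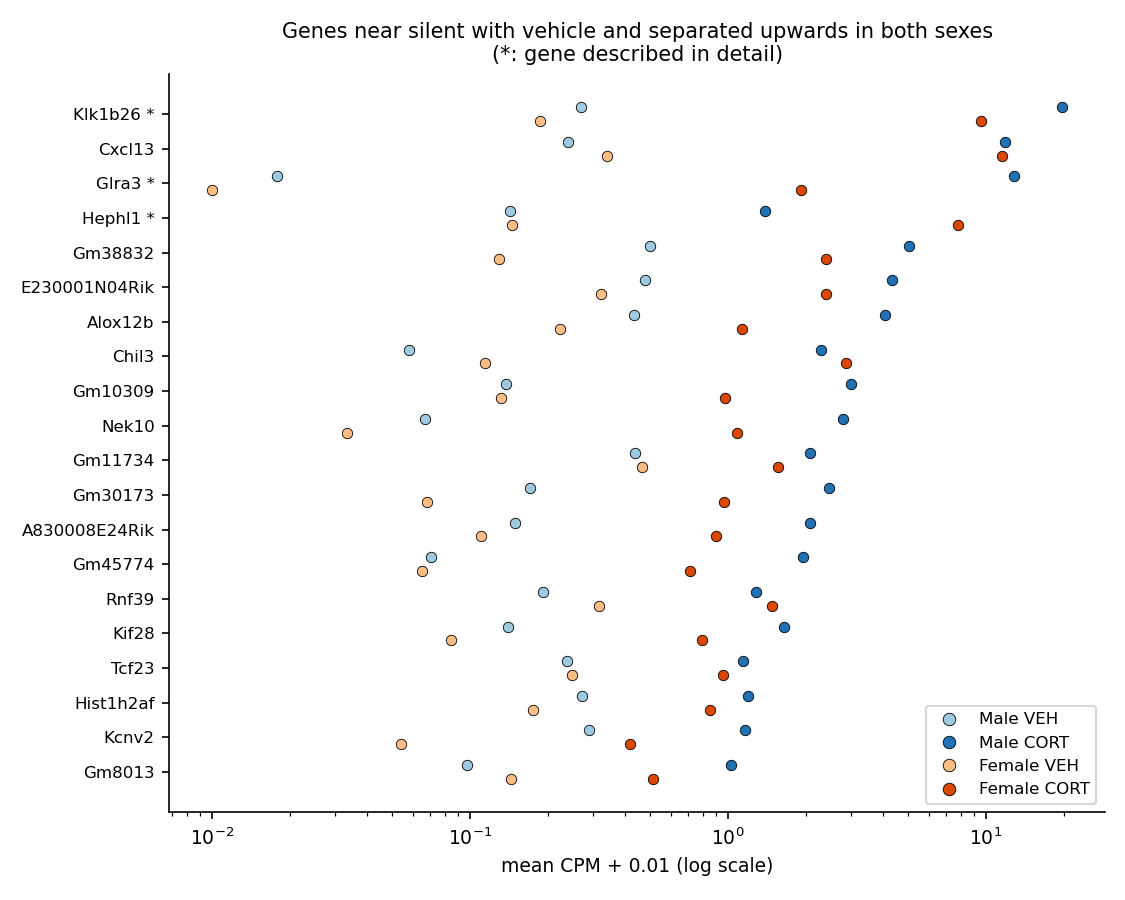
Mean CPM plus 0.01 on a log axis in each of the 4 groups for the 20 genes that averaged under 0.5 CPM in both vehicle groups and were separated upwards in both sexes, ordered by the mean over treated mice. Klk1b26 and Glra3 lie at the top right (19.7 and 12.8 CPM in treated males), and Hephl1 lies at 7.74 CPM in treated females (0.536 CPM in F4 and F8 alone) and 1.38 CPM in treated males.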

How the data were processed

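RNA of 23 quadriceps was sequenced in paired 100-base reads on a stranded library. The authors aligned reads with STAR 2.7.3a to mm10, counted read pairs per gene by strand with HTSeq 0.12.4 (Ensembl release 97), and deposited raw counts with 1 column per mouse. The 5 summary entries that name no gene, 10.7% to 15.3% of read pairs, were left out. Counts on genes were 20904150 to 21984477 per mouse, so 3 counts stood for at most 0.165 CPM. Intervals cover counting error only.

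Names and positions came from GENCODE M21 (GRCm38), which matched 55480 of 55573 gene IDs. CPM used TMM factors, and RPKM divided CPM by the joined length of all exons. edgeR 4.0.16 (quasi-likelihood, 4 group means, R 4.3.3) tested 13049 genes, those for which 4 or more mice of a group exceeded 20 normalized counts, adjusted by Benjamini-Hochberg with a threshold of 0.01. The alternatives used DESeq2 1.42.0, limma 3.58.1, other filters and scalings, mice left out and a replicate block. Scripts were tested on simulated data.

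The 4 genes and all lists were chosen with earlier results of these data known. Named genes are the 4, the 15 near-silent genes with the highest treated mean, the 3 most alike per gene, called or closest relatives, called neighbours, Fkbp5, and markers that moved. No pair of replicates agreed within sampling noise (lowest chi-square per degree of freedom 14.4).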

Additional observations from a re-analysis of the deposited data

Results flagged for a closer look

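Dixon's test at the 95% level was applied to the CPM of the 4 genes and Fkbp5 in 18 groups of 5 or 6 mice, and picked out 1 mouse in each of 4. Chance alone picks out about 1 in 20 such groups where values are normally distributed, a rate that need not hold for sparse counts with ties. M9 was the highest of the vehicle-treated males for Glra3 with 1 count, where the others had 0, so any count in it would have been picked out. M2 was the highest treated male for Hephl1 with 49 counts, the next having 31. F9 was the lowest vehicle-treated female for Hephl1 with 0 counts, where the others had 3 or 4. F4 was the lowest treated female for Klk1b26 with 49 counts, where the others had 225 to 289. In M9 and F9 the step is 1 to 3 counts, which is within counting error. F4 also had the fewest Glra3 (14) and Hephl1 (8) counts of the treated females, while its Fkbp5 level lay inside the range of its group.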

How the results depend on the processing

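Of 150 values recomputed under other settings, apart from single mice left out, 125 kept their direction and their side of the threshold (counts: stayed within 1.5 times). For treated males against females, sides of the edgeR threshold are named to show what a setting moves and support nothing for genes named with their sex pattern known. Glra3 in that comparison kept both under every setting run, and so did Gpr179 except that leaving out F2, F6 and F10 gave 3.22 on the log2 scale with an adjusted p of 0.0113. Hephl1, males against females, lost its call with no filter beyond 1 count (-2.41), treated mice alone (-2.49), the replicate block (-1.80) and without M8 and F10 (-1.99), turned to 1.37 without F2, F6 and F10, and ran from -2.79 to -2.10 with single mice left out, losing its call without M4, M6, M8, F2, F6 or F10. Its interaction turned to 1.40 without F2, F6 and F10. Klk1b26 gained the call under limma-voom (0.95). Same-numbered vehicle-treated mice correlated from 0.086 to 0.47 and treated ones from -0.37 to 0.23, and the same-numbered male was the best match for 5 of 11 females; since 7 of 11 pairs, not all, were over 0.1, the numbers were not taken to pair the mice. The replicate block took the calls between treated sexes from 3043 to 2262 and those of the interaction from 90 to 97; it changed no other call of the 4 genes. Relatives called in females, 10 in all, numbered 6 with a limit of 1 on the log2 fold change, 6 with each sex fitted alone and 2 without F2, F6 and F10. Near-silent genes separated upwards, 20 in all, numbered 11 and 35 at vehicle limits of 0.25 and 1 CPM and 13 at a treated minimum of 2 CPM.

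For Glra3 with Klk1b26, r was 0.66 without the 2 farthest mice and 0.62 without F2, F6 and F10, and ran from 0.67 to 0.78 with single mice left out, missing an adjusted p of 0.05 without M4, F2, F4 or F6. For Gpr179 with Fkbp5, the Spearman value was 0.55, and r was 0.34 without the 2 farthest mice, 0.79 without F2, F6 and F10, 0.69 without M8 and F10 and 0.62 to 0.91 with single mice left out, missing 0.05 without M4, M12, F4, F6 or F10. Among the pairs that were not called, those of Hephl1 with Gpr179, Klk1b26 and Fkbp5 changed sign. Gpr179 with Hephl1 had 0.20 without the 2 farthest mice, 0.15 without M8 and F10 and -0.52 to 0.10 with single mice left out. Hephl1 with Klk1b26 had -0.15 without the 2 farthest mice and -0.013 to 0.85 with single mice left out. Hephl1 with Fkbp5 had -0.26, then -0.24 without F2, F6 and F10, and -0.13 to 0.65 with single mice left out. Leaving out named groups of mice was chosen after seeing the data. The cause was not tested for any of these changes. Counts of 0 to 11 per vehicle-treated mouse limit every fold against vehicle.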

Other observations

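Turning the description of near-silent genes round, chosen after seeing the data, gave 14 genes, against 20 in the upward direction. These 14 averaged under 0.5 CPM in both treated groups and at least 1 CPM in a vehicle group. Every treated mouse lay below every vehicle-treated mouse of its sex. Rgs6, a regulator of the same family as the retinal partners of Gpr179, was 1 of the 14, with a mean of 1.12 CPM over vehicle-treated mice. Gnb3, a G protein beta subunit also known from retinal ON bipolar cells and cones, was another, with 0.913 CPM. Ciita, the master regulator of MHC class II genes (1.28 CPM), Cd209a (1.69 CPM) and Siglech (0.890 CPM), which mark dendritic cells, were 3 more, while the chemokine Cxcl13 and the macrophage gene Chil3 were among the 20 that were switched on. These genes were named after their values were seen.

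M1 stood alone among the 23 mice in another respect. It had 26 counts of Adam29, the nearest protein-coding neighbor of Glra3, where no other mouse had any, and 92 counts of kallikreins of the Klk1 and Klk1b cluster other than Klk1b26, where the other 22 mice had 0 to 9. Its Glra3 count was 0.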
